A study of Mus musculus with 24 samples.

Results

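The genes described are those for the protein components of the cytosolic ribosome. They were chosen by name: protein-coding mouse genes with the symbol Rpl or Rps followed by a digit, plus Rpsa, Rplp0, Rplp1 and Rplp2, without the S6 kinases (Rps6k), Rps19bp1 and pseudogenes. This gave 85 genes of the 35855 in the tables, 52 of the large subunit and 33 of the small subunit. Of these, 82 were among the 12211 genes that passed the filter on low counts. The other 3, Rpl3l, Rpl10l and Rpl39l, had 8, 6 and 2 estimated counts over all 24 libraries and were at 0 in most of them.

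The libraries are low-input RNA-seq of airway epithelial cells sorted from the trachea of untreated wild-type female C57BL/6 mice, with 1000 cells and the SmartSeq2 population protocol for each library. The labels name 3 cell groups: cells high for BCAM (basal cell adhesion molecule, a laminin receptor), cells low for BCAM, and differentiated cells. Each group has 8 libraries, 5 in the batch labelled 1 and 3 in the batch labelled 2, and no label says what a batch was. All groups share strain, genotype, sex and lack of treatment, and the age of the mice is not given. The labels do not say whether libraries came from separate mice, so p-values measure the spread between these libraries, which may be partly technical.

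Ribosomes are built from ribosomal RNA and one copy of most of these proteins, made in the cytosol and carried to the nucleolus for assembly. Ribosomal protein mRNAs are among the most abundant in growing cells. Many begin with a cytosine followed by a run of pyrimidines, the 5′ terminal oligopyrimidine (TOP), through which mTOR complex 1 and the RNA-binding protein LARP1 control their translation. In the airway, basal cells are the stem cells that give rise to secretory and ciliated cells.

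The start of a gene carries the TOP run, and its letters are shown for the 5 genes with the largest change between BCAM-high and differentiated cells and for both members of 3 paralogue pairs that changed unequally. Each sequence is 40 bases of the RefSeq GRCm38.p6 genome read in the direction of the gene, 20 before the annotated start and 20 after. Capitals mark the longest run of at least 4 C or T that reaches into the stretch from 5 bases before the start to 10 after it, so that runs lying wholly outside that stretch stay in lower case. The 5 genes come first.
Rpl5: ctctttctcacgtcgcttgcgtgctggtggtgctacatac
Rps16: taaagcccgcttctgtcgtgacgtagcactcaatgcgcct
Rps15a: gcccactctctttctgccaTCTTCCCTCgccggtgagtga
Rps7: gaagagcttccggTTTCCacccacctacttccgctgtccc
Rps4x: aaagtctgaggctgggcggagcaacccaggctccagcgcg
They lie at chr5:107900508-107900547 (plus strand), chr7:28350669-28350708 (plus), chr7:118116128-118116167 (minus), chr12:28635934-28635973 (minus) and chrX:102189372-102189411 (minus). Rpl5, Rps16 and Rps4x have no run in capitals. The paralogue pairs follow, with both annotated starts of Rps27l and Rpl22.
Rps27: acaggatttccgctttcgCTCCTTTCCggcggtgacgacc
Rps27l, upstream start: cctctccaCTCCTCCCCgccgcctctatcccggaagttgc
Rps27l, downstream start: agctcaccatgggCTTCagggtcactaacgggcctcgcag
Rpl22, upstream start: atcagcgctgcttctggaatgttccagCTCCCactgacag
Rpl22, downstream start: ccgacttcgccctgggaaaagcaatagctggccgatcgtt
Rpl22l1: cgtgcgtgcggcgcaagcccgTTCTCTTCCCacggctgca
Rpl36a: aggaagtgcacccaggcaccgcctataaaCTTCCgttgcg
Rpl36al: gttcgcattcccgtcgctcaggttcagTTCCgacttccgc
They lie at chr3:90213629-90213668 (minus), chr9:66946066-66946105 and chr9:66946393-66946432 (plus), chr4:152324416-152324455 and chr4:152325706-152325745 (plus), chr3:28805488-28805527 (plus), chrX:134585634-134585673 (plus) and chr12:69184048-69184087 (minus). Of all genes shown, Rps15a and Rps27 have a C at the annotated start followed by at least 4 further C or T. Their partners and the other 4 large changes do not.

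RefSeq start windows were found for 65 of the 85 genes, 77 windows in all. A C at the start followed by at least 4 further C or T was present in 14 of the 77 windows (18.2%), against 2.51% of all 32851 windows. A run of at least 7 C or T from 15 bases before to 20 after the start was present in 49.4% of the ribosomal protein windows and 21.2% of all windows. The letters CTTCCG, which hold the core of ETS-family sites, were present on either strand from 150 before to 50 after the start in 49.4% against 13.8%, and TATAAA in 7.79% against 8.91%. The 14 genes with the C and pyrimidine start had a median log2 change of 0.91 in BCAM-high against differentiated cells, and 13 of them were called, all higher. The other 48 tested genes with a window had a median of 0.94, and 42 were called, Rpl36al among them as lower. Of all genes tested in this comparison, 19.4% were called higher and 22% lower. This split rests on the annotated base alone, so genes with a pyrimidine run only upstream of it, such as Rpl5 and Rps7, count among the 48. It therefore cannot show which of these mRNAs carry a TOP, or whether the change differs with a TOP.

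Library totals ran from 1824619 to 4440072 estimated counts. The 10 basal markers (Krt5, Krt14, Trp63 and others) summed to between 3736 and 6170 TPM (transcript level per length, scaled to the same total in every library) in BCAM-high, 2880 and 4344 for BCAM-low, and 151 and 1216 in differentiated libraries. Krt5 averaged 1672 CPM (counts scaled to library size) in BCAM-high and 0.854 in differentiated libraries. The 9 secretory markers held 24012 to 39934 TPM in BCAM-high and 27047 to 80808 for BCAM-low libraries. They held 304756 to 392802 TPM in the 5 differentiated libraries of batch 1 but 17181 to 128750 in the 3 of batch 2. Thyroid markers (Tg and others) reached 3373 to 5976 TPM and 14842 to 28190 TPM in the same batches of that group, parathyroid and neuroendocrine markers up to 20712 TPM in 1 differentiated library of batch 1, and erythrocyte markers 4073 TPM in BCAM-low replicate 2. Ciliated markers were at 131 to 180 TPM in BCAM-low libraries of batch 2 and at 5.28 to 20.3 TPM in those of batch 1. In bulk samples, fewer cells of a type and less RNA per cell cannot be told apart.

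Ribosomal protein mRNA took the largest share of the transcriptome in BCAM-high cells and the smallest in differentiated cells. The summed TPM of the 85 genes was 11.4% ± 1.48 (SD, n = 8) of the library in BCAM-high, 7.53% ± 1.93 (SD, n = 8) for BCAM-low and 3.81% ± 0.608 (SD, n = 8) in differentiated libraries. The lowest, median and highest library had 8.53%, 11.7% and 13.0% in BCAM-high, 4.50%, 7.47% and 10.4% for BCAM-low, and 2.43%, 4.08% and 4.28% in differentiated cells. By summed TPM every BCAM-low library was thus above every differentiated library, while BCAM-high and BCAM-low overlapped. The means differed 1.52-fold between BCAM-high and BCAM-low, 3.0-fold between BCAM-high and differentiated, and 1.98-fold between BCAM-low and differentiated cells. These 3 comparisons share libraries.

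**Figure D1:**
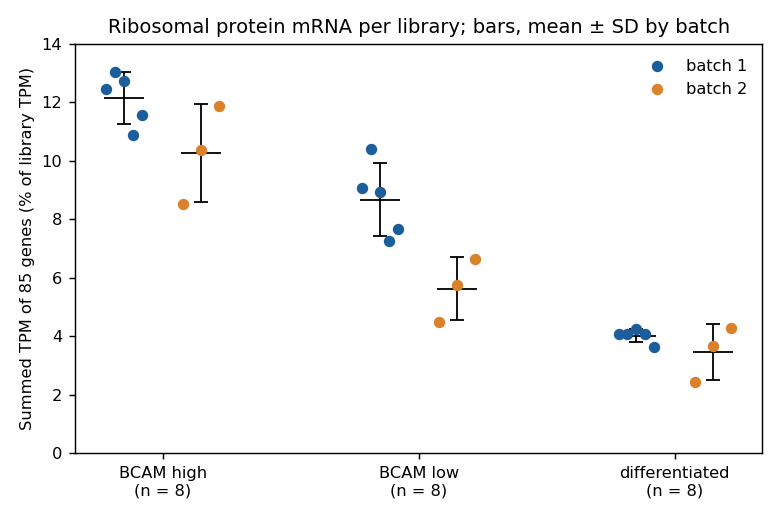
Summed TPM of the 85 ribosomal protein genes as a percent of each library's TPM (vertical axis) in the 3 cell groups (horizontal axis); points are libraries coloured by batch, bars the mean ± SD of a batch. BCAM-high libraries lie between 8.53% and 13.0% and differentiated libraries between 2.43% and 4.28%, with batch 2 means below batch 1 means in each group.

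The size of this difference depended on the scale. The TPM share moves with all other mRNAs of a library. The secretory markers took up to 392802 TPM in differentiated libraries of batch 1. In differentiated replicates 6 and 7, of batch 2, they held 18974 and 17181 TPM, where the ribosomal protein share was 2.43% and 3.68%. The part of secretory mRNAs in the difference between scales was not tested. After TMM scaling, which centres the bulk of genes, the summed CPM of the ribosomal protein genes differed 1.28-fold, 1.87-fold and 1.47-fold in the same 3 comparisons. By summed CPM BCAM-low and differentiated libraries overlapped, as BCAM-low replicate 8 (29967 CPM) lay below differentiated replicate 2 (32157 CPM). All fitted changes below are on this TMM scale, on which the median of all genes was 0.00, 0.02 and 0.02 (log2). Scaling by library totals instead moved the median of all genes to 0.17, 0.57 and 0.40, and that of the ribosomal protein genes to 0.50, 1.47 and 0.98.

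By level per length, genes with a high mean TPM over the 24 libraries were Rpl41 (2989 TPM), Rplp1 (2739 TPM), Rps27 (2683 TPM) and Rplp0 (2004 TPM). The lowest of the tested genes were Rpl5 (24.4 TPM), Rpl12 (34.3 TPM), Rpl7l1 (35.5 TPM), and 2 others at up to 135 TPM. Rpl5 and Rpl12 had most of their reads assigned to pseudogene copies (below). Rpl3l, Rpl10l and Rpl39l, paralogues with expression known mainly from muscle or testis, averaged 0.133, 0.0829 and 0.05 TPM.

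Ribosomal protein genes of both subunits rose in BCAM-high against differentiated cells. Of the 82 tested genes 73 were higher and 1 was lower at an adjusted p under 0.05 (edgeR quasi-likelihood test, Benjamini-Hochberg adjustment over all 12211 genes, as for all adjusted p-values of single genes below). Of all genes tested, 19.4% were higher and 22% were lower. The median log2 change of the 82 was 0.92 (quartiles 0.80 and 1.05), against 0.02 over all genes. It was 0.89 for the large subunit (43 of 49 higher) and 0.99 for the small subunit (30 of 33 higher). All 8 BCAM-high libraries lay above all 8 differentiated libraries for 60 of the 82 genes, against 6.1% of all genes. The reverse held for none of the 82, and for 7.3% of all genes. All 10 basal markers were also higher in this comparison (median log2 change 5.35), 8 of 9 secretory markers and all 5 tested thyroid markers were lower, and the part of cell composition in the ribosomal protein result was not tested.

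The ribosomal stalk, the flexible arm that recruits elongation factors, is made of Rplp0 and dimers of Rplp1 and Rplp2. Rplp0 (chr5:115559467-115563727, GRCm38) had 1915, 2551 and 3057 CPM in the lowest, median and highest BCAM-high library, 1393, 1790 and 2172 for BCAM-low, and 890.7, 1069 and 1638 in differentiated libraries. BCAM-high and differentiated libraries did not overlap. The log2 change between them was 1.11 (SE 0.09, adjusted p 3.67e-11). Rplp1 had 909.5, 1469 and 1745 CPM in BCAM-high, 704.8, 1135 and 1648 for BCAM-low, and 470.0, 754.7 and 907.7 in differentiated libraries. It again separated BCAM-high from differentiated cells, though narrowly (log2 change 0.96, SE 0.09, adjusted p 5.64e-10).

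In the small subunit, Rps6 is the protein phosphorylated by S6 kinases downstream of mTOR, and Rpsa is also known as a laminin-binding protein. Rps6 had 381.9, 466.0 and 595.7 CPM in BCAM-high, 321.8, 399.0 and 526.1 for BCAM-low, and 188.9, 265.4 and 293.7 in differentiated libraries. Neither BCAM group overlapped the differentiated libraries. The log2 change of Rps6 between BCAM-high and differentiated cells was 0.90 (SE 0.10, adjusted p 2.25e-08). Rpsa had 1082, 1314 and 1494 CPM in BCAM-high, 784.1, 1032 and 1132 for BCAM-low, and 450.8, 682.1 and 873.7 in differentiated libraries, a log2 change of 0.99 (adjusted p 4.93e-11) between the first and the last with no overlap.

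Without copies added, the 4 largest changes after that of Rpl5 were all in the small subunit. Rps16 had 347.3, 567.9 and 695.6 CPM in BCAM-high, 275.3, 405.6 and 575.9 for BCAM-low, and 176.0, 205.0 and 251.2 in differentiated libraries (log2 change 1.36, SE 0.11, adjusted p 5.32e-11). Rps15a had medians of 476.5, 336.7 and 187.0 CPM (1.31, adjusted p 2.16e-10), Rps7 of 298.9, 238.9 and 125.2 CPM (1.26, adjusted p 4.9e-10), and Rps4x of 1998, 1312 and 794.4 CPM (1.22, adjusted p 4.25e-12). For all 4 genes the lowest BCAM-high library was above the highest differentiated one. With sequence copies added (below), no ribosomal protein gene rose by more than 1.26, less than Rps16 and Rps15a without copies. The change of Rpl12 of the large subunit grew there. Rps4x is X-linked (chrX:102184941-102189394), and its autosomal relative Rps4l is annotated as a pseudogene and was not among the genes.

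**Figure D2:**
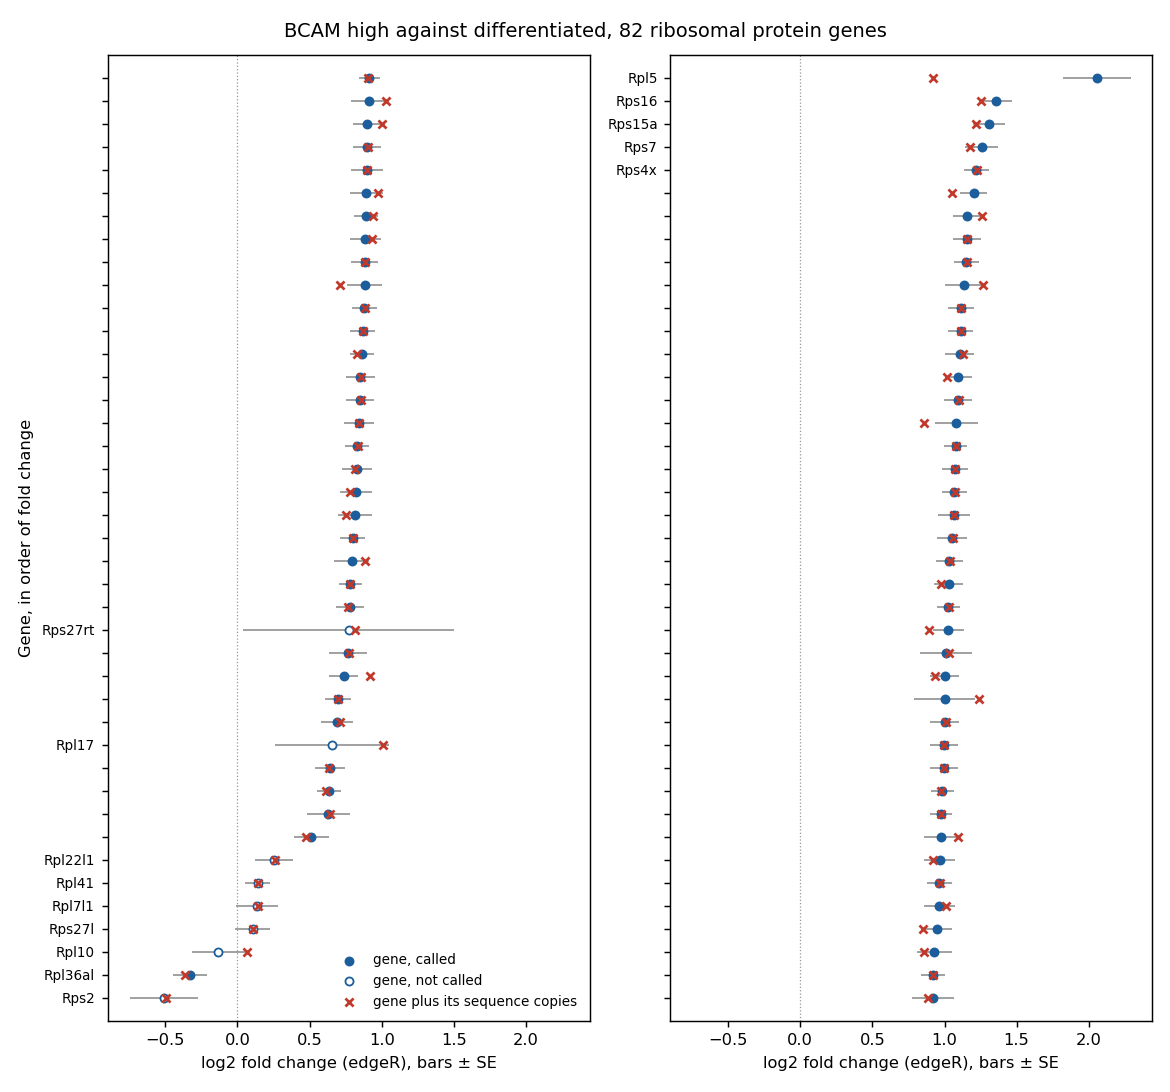
Fitted log2 fold change of BCAM-high over differentiated cells (horizontal axis, bars ± SE) for the 82 tested genes in order (vertical axis, 2 columns), named for the 5 largest changes, the genes that did not pass and those below 0; filled points passed the test, and crosses give the fit with the counts of sequence copies added. The quartiles are 0.80 and 1.05, Rpl5 at 2.05 moves to 0.92 with its copies, and Rps2, Rpl36al and Rpl10 lie below 0.

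Of the large subunit, Rpl4 lines the exit tunnel of the ribosome and Rpl3 reaches to the peptidyl transferase centre. Rpl4 had 1299, 1656 and 1947 CPM in BCAM-high, 879.4, 1178 and 1508 for BCAM-low, and 591.3, 816.8 and 1037 in differentiated libraries (log2 change BCAM-high over differentiated 1.03, adjusted p 1.76e-11). Rpl3 had medians of 1248, 1047 and 683.2 CPM and a log2 change of 0.89 (adjusted p 7.92e-08). Rpl39, a small tunnel protein, had medians of 489.7, 381.5 and 259.5 CPM and a change of 0.90 (adjusted p 1.11e-08). BCAM-high libraries lay above all differentiated libraries for each of the 3.

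The 8 genes that did not pass the test between BCAM-high and differentiated cells were Rpl10 (log2 change -0.13), Rpl17 (0.65), Rpl22l1 (0.25), Rpl41 (0.14), Rpl7l1 (0.14), Rps2 (-0.51, adjusted p 0.0888), Rps27l (0.10) and Rps27rt (0.77). Rps2, Rpl17 and Rps27rt are named here after their values were seen. Rps27rt is a single-exon relative of Rps27 and ran from 0 to 35.8 CPM within the differentiated libraries, with an SE of 0.73. Rpl41, the smallest ribosomal protein, had 935.1, 1175 and 1281 CPM in BCAM-high, 956.7, 1037 and 1519 for BCAM-low, and 834.8, 1070 and 1275 in differentiated libraries. Its groups overlapped over most of their range, and the change had an adjusted p of 0.201 on the TMM scale. Scaled by library totals the change of Rpl41 was 0.69, past the threshold, where the median of all genes was 0.57.

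BCAM-low cells were also above differentiated cells. Of the 82 genes 71 were higher and none was lower, against 16.3% and 17.1% of all genes. Unadjusted, 72 of the 82 had a p under 0.05 in either direction, against 5236 of all 12211 genes. DESeq2's Wald test called 71 of the 82 higher and none lower. The median log2 change was 0.60 (quartiles 0.47 and 0.69), 0.56 for the large subunit and 0.64 for the small subunit. All BCAM-low libraries lay above all differentiated libraries for 17 genes (3.44% of all genes) and below them for none (3.83%). Among the 17 were Rps6, Rps16, Rps15a, Rps7, Rps12 and Rpl5. Rps7 had the largest change after Rpl5 (0.95, SE 0.11, adjusted p 1.62e-07), followed by Rps16 (0.91, adjusted p 1.72e-07), Rps12 (0.89, adjusted p 3.05e-06) and Rps15a (0.85, adjusted p 8.78e-07). Batch 2 alone, with 3 libraries a group, gave 43 called genes, 42 higher and 1 lower, where 1100 of 12385 genes were higher and 1121 lower.

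Between the BCAM groups the ribosomal protein genes were higher in BCAM-high cells. Of the 82 genes 45 were higher and none was lower, where 2.43% of all genes were higher and 4.59% lower. Unadjusted, 64 of the 82 had a p under 0.05, against 2537 of all 12211 genes. DESeq2's Wald test called 48 of the 82, all higher. The median log2 change was 0.33 (quartiles 0.26 and 0.40) against 0.00 over all genes, with 0.32 for the 49 genes of the large subunit (26 called) and 0.34 for the 33 of the small subunit (19 called). The fitted change was above 0 for 79 of the 82, with Rps2 (-0.49), Rpl17 (-0.11) and Rpl36al (-0.07) below, none of which passed the test. No gene separated the 8 libraries of one group from the 8 of the other, where 0.5% of all genes did so in the direction of BCAM-high and 0.999% in the other. The count of calls, though not the size of the change, rested on the batch term. Without it 4 genes were called, with a median of 0.32 and again 79 of 82 above 0. Of all 12211 genes 126 were then higher and 419 lower. Within batch 1 and batch 2 alone 17 and 13 were called, with medians of 0.28 and 0.44. There 260 of 12673 and 102 of 12385 genes were higher, and 461 and 441 lower.

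Within a batch, where fewer libraries were compared, groups separated more often among all genes too. In batch 1, 15 genes had all 5 BCAM-high libraries above all 5 BCAM-low ones (3.32% of all genes; none the other way, against 4.18%), and in batch 2, 58 genes had all 3 above all 3 (11.1% of all genes), with 1 gene the other way (12.4%). BCAM-high lay above differentiated libraries for 73 genes in batch 1 (11.8% of all genes) and 70 in batch 2 (20.9%), and BCAM-low above differentiated for 61 (10.2%) and 61 (16.9%). In batch 2, 2 genes had all BCAM-high libraries below the differentiated ones (21.6% of all genes) and 2 had BCAM-low below (16%).

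Rps4x, Rplp0 and Rpl4 were among the 5 genes with the largest change between the BCAM groups. Rps4x had 1254, 1998 and 2359 CPM in BCAM-high and 910.8, 1312 and 1718 for BCAM-low libraries (log2 change 0.54, SE 0.09, adjusted p 0.000168). The highest BCAM-low library was above the lowest BCAM-high library. Rplp0 changed by 0.51 (adjusted p 0.00046) and Rpl4 by 0.48 (adjusted p 0.000241). Without the batch term Rps4x and Rpl4 no longer passed, with log2 changes of 0.54 and 0.47. Across the 82 genes the change between the BCAM groups rose with the mean TPM (Spearman's rho 0.545, a description across genes of the same libraries), while rho was 0.268 for BCAM-high and -0.024 for BCAM-low against differentiated cells.

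**Figure D3:**
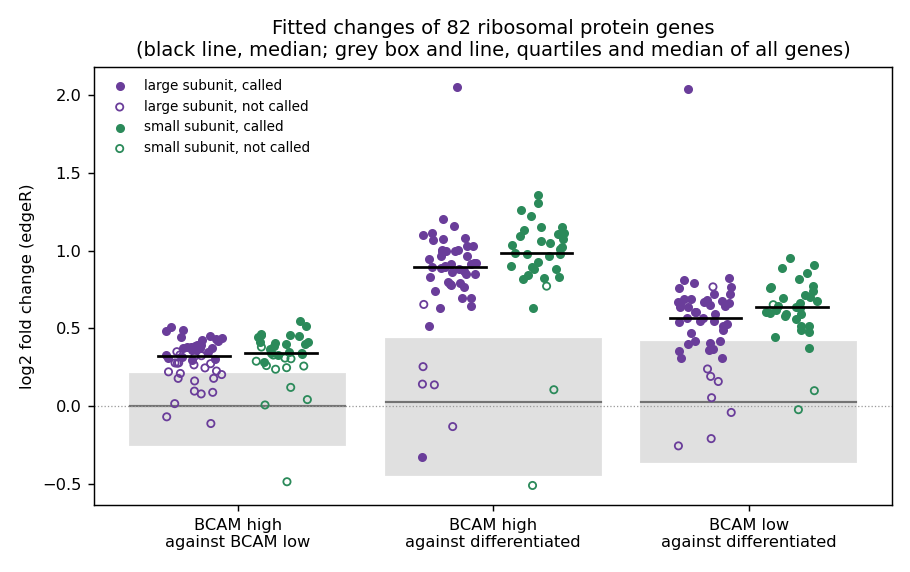
Fitted log2 fold changes (vertical axis) of 49 large-subunit and 33 small-subunit genes in the 3 comparisons of groups (horizontal axis); filled points passed the test, black lines are medians, and the grey box and line are the quartiles and median of all 12211 genes. Medians of the ribosomal protein genes are 0.33, 0.92 and 0.60, and those of all genes 0.00, 0.02 and 0.02.

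Some ribosomal proteins have a paralogue, and some of these paralogues can take their place in the ribosome. Within 4 pairs of a gene and its paralogue the standard gene rose on the TMM scale while its paralogue was not called higher. In BCAM-high against differentiated cells Rps27 rose by 1.15 (log2, adjusted p 9.86e-11), and Rps27l, a target of p53, changed by 0.10 (SE 0.12, adjusted p 0.536). Rps27l had 73.75, 91.19 and 132.7 CPM in BCAM-high, 60.89, 94.83 and 138.4 for BCAM-low, and 67.21, 94.22 and 103.3 in differentiated libraries, so its groups overlapped. Rps27 had medians of 924.2, 694.8 and 456.4 CPM, with no overlap between BCAM-high and differentiated libraries. Rpl22 rose by 0.87 (adjusted p 2.6e-09) and Rpl22l1 changed by 0.25 (SE 0.13, adjusted p 0.131). Rpl22 had medians of 257.5, 196.0 and 142.2 CPM in the 3 groups, and Rpl22l1 of 101.7, 90.85 and 88.36 CPM. Rpl7 rose by 0.78 (adjusted p 6.74e-09), with medians of 1114, 826.3 and 618.3 CPM. Rpl7l1, known for a role in ribosome assembly, changed by 0.14 (SE 0.15, adjusted p 0.487), or by -0.01 with transcript length offsets, with medians of 75.54, 65.11 and 69.97 CPM. By library totals, where the median gene had 0.57, Rps27l, Rpl22l1 and Rpl7l1 had changes of 0.64, 0.79 and 0.70, all past the threshold.

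Rpl36al was the 1 gene called lower, by 0.33 on the log2 scale (SE 0.12, adjusted p 0.026), and its direction turned to 0.21 by library totals and to 0.43 with limma on TPM. The call was lost without BCAM-high replicate 6 (-0.31) or differentiated replicate 7 (-0.29) or 8 (-0.30). It had 134.4, 155.3 and 181.6 CPM in BCAM-high, 128.3, 151.6 and 243.8 for BCAM-low, and 168.1, 194.6 and 230.4 in differentiated libraries, which overlap. Its X-linked partner Rpl36a rose by 0.92 (SE 0.14, adjusted p 5.54e-06), with medians of 193.3, 148.5 and 104.2 CPM and no overlap between BCAM-high and differentiated libraries.

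The ratio of both genes of a pair within a library does not depend on how libraries are scaled, and was added after these values were seen. The log2 ratio of Rps27 to Rps27l was 2.94, 3.23 and 3.72 in the lowest, median and highest BCAM-high library, 2.39, 2.82 and 3.02 for BCAM-low, and 1.76, 2.20 and 2.51 in differentiated libraries. The log2 ratio of Rpl36a to Rpl36al was -0.12, 0.29 and 0.67, then -0.55, -0.08 and 0.30, and -1.40, -1.10 and -0.36. In both pairs every BCAM-high library was above every differentiated library. The difference of the mean log2 ratio between BCAM-high and differentiated cells was 1.07 for Rps27, 1.27 for Rpl36a, 0.61 for Rpl22 and 0.62 for Rpl7, each over its paralogue. The adjusted p-values were 0.000932, 0.000932, 0.00342 and 0.00261 in 2-sided exact permutation tests over libraries, adjusted over 12 comparisons, with 0.000155 as the smallest unadjusted p possible. The same differences were 0.88, 1.42, 0.48 and 0.54 within batch 1 and 1.37, 1.00, 0.84 and 0.76 within batch 2, where 3 libraries against 3 cannot pass the threshold.

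Between the BCAM groups the ratio was higher in BCAM-high by 0.43 for Rps27 (adjusted exact p 0.00533), 0.28 for Rpl22 (0.0100), 0.38 for Rpl36a (0.0361) and 0.26 for Rpl7 (0.106, not past the threshold). The call of Rpl36a was lost, with values of 0.31 to 0.37, without BCAM-high replicate 1, 2, 3 or 5 or BCAM-low replicate 2, 5, 6 or 7, and that of Rps27 within batch 1 (0.35). Rpl7 passed without BCAM-low replicate 3 (0.33). For BCAM-low over differentiated cells it was 0.63 (0.00261), 0.33 (0.0421), 0.89 (0.00124) and 0.37 (0.0983) in the same order. The call of Rpl22 was lost here, with values of 0.27 to 0.35, without any one BCAM-low replicate other than 7 or differentiated replicate 4, 6, 7 or 8, and within batch 1 (0.10). Rpl7 passed without BCAM-low replicate 6 (0.46) or differentiated replicate 5 (0.47). The 4 paralogues had at most 3.87% of their counts on sequence copies, while Rpl36a had 39.7%. The ratios were not tested with the copies added.

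Ribosomal protein genes have many processed pseudogenes, which limits what reads of 38 bases can assign. In the GENCODE M21 annotation 309 other genes shared at least 50% of their 31-base words with one of the 85 genes, 299 of them pseudogenes. For 16 of the genes every stretch of 38 bases of the coding sequence was found in a single copy, and for 15 none was. Rpl5, which carries 5S rRNA into the large subunit with Rpl11, is shown because its coding sequence is the same as that of the pseudogene Gm15500, here for the first 60 bases with the start codon in capitals.
Rpl5: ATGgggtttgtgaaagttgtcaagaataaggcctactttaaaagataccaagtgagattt
Gm15500: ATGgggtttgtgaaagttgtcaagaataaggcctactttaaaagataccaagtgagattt
Copies held 97.2% of the counts of Rpl5 and its copies together, 95% for Rpl12, 84.7% for Rpl35, 83.6% for Rpl17, 74.7% for Rpl10 and 72.1% for Rps23. For 18 genes the copies held most of the counts, and for 38 under 1%.

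Adding each gene's copies to its counts left the group results in place and changed single genes. Rpl5 alone had 37.25, 44.1 and 54.19 CPM in BCAM-high, 25.6, 47.32 and 63.04 for BCAM-low, and 3.917, 8.484 and 21.2 in differentiated libraries. Its log2 changes were 0.01, 2.05 and 2.04 in the order BCAM-high over BCAM-low, BCAM-high over differentiated and BCAM-low over differentiated. With its copies Rpl5 had 1442, 1666 and 1819 CPM, then 1072, 1257 and 1409, and 728.2, 901.2 and 999.7. The log2 changes became 0.39 (adjusted p 0.0007), 0.92 (adjusted p 1.42e-11) and 0.53 (adjusted p 7.1e-07), close to the median of all ribosomal protein genes in each comparison. Rpl12, at the base of the stalk, moved from 1.00 to 1.24 in BCAM-high against differentiated cells, and Rps6 from 0.90 to 1.01. Rpl10, a late-joining protein of the large subunit, did not pass the test with a log2 change of -0.13, or of 0.06 with its copies (adjusted p 0.492), 0.41 by library totals and 0.50 with limma on TPM.

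With copies added 74 genes were higher and 1 was lower in BCAM-high against differentiated cells (median 0.92), 73 were higher in BCAM-low against differentiated cells (0.56), and 65 were higher in BCAM-high against BCAM-low cells (0.37). Of all 12152 genes in that fit 2353, 1980 and 319 were higher and 2662, 2086 and 560 lower, in the same order. The SD of the change across genes went from 0.355 to 0.323 in the first, from 0.289 to 0.222 in the second and from 0.158 to 0.142 in the last. The 35 tested genes with under 1% of counts on copies, which hardly depend on this choice, had medians of 0.90 (31 higher), 0.55 (31 higher) and 0.37 (26 higher). These are from the fit without copies added, where 19.4%, 16.3% and 2.43% of all genes were higher. Over all genes, copies held 21.5% to 24.6% of the joint counts in BCAM-high and 21.6% to 23.6% for BCAM-low libraries. In differentiated libraries they held 25% to 27.3% in batch 1 and 19.6% to 22.4% in batch 2.

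Within each cell group the median ribosomal protein gene was lower in batch 2 than in batch 1. The summed TPM averaged 10.3% against 12.1% in BCAM-high, 5.63% against 8.68% for BCAM-low and 3.46% against 4.02% in differentiated libraries, ratios of 0.845, 0.649 and 0.860. By this sum the batches overlapped in BCAM-high and differentiated cells, where the highest differentiated library of all was of batch 2 (4.28%), and did not overlap in BCAM-low cells (at most 6.64% in batch 2, at least 7.27% in batch 1). In the fit, 17 genes were lower and none higher in batch 2 of BCAM-high cells, against 3.11% lower and 4.93% higher among all genes. Unadjusted, 49 of the 82 had a p under 0.05, against 2671 of all 12211 genes. DESeq2's Wald test called 25 of the 82 lower. In BCAM-low cells 50 were lower and none higher, against 4.66% and 6.48% of all genes. Unadjusted, 67 of the 82 had a p under 0.05 there, against 2969 of all 12211 genes. DESeq2's Wald test called 56 of the 82 lower. In differentiated cells 38 were lower and 1 higher, against 10.2% and 9.98%. The median log2 changes were -0.33, -0.45 and -0.38, against -0.02, -0.02 and 0.04 over all genes. The batch term over all groups was lower for 62 of the 82 genes and higher for none, against 9.61% and 11.8% of all genes. Unadjusted, 68 of the 82 had a p under 0.05 for this term, against 4096 of all 12211 genes.

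All batch 2 libraries lay below all batch 1 libraries for 35 genes in BCAM-high (9.04% of all genes), 61 for BCAM-low (8.41%) and 42 in differentiated cells (10.8%). In differentiated cells 2 genes had them above (10.9% of all genes), and in the BCAM groups none had (9.82% and 9.89%). These counts rested on few libraries. Without BCAM-high replicate 3, 6 or 7 the count of 17 became 10, 2 and 4. Without BCAM-low replicate 6 or 7 the count of 50 became 30 and 31, and without differentiated replicate 7 the count of 39 became 24. By library totals the calls were 8 lower in BCAM-high, 59 lower in BCAM-low, and 7 lower with 4 higher in differentiated cells. With limma on log2(TPM + 0.1) none passed in BCAM-high (12 unadjusted), 31 were lower in BCAM-low, and 8 were lower with 3 higher in differentiated cells. Of all 12211 genes 223, 713 and 746 were lower and 519, 493 and 1831 higher by library totals, in the same order. By this limma fit 72, 240 and 549 were lower and 206, 292 and 1267 higher.

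Rplp1 was among the 5 genes with the largest fall in all 3 groups, with changes of -0.67, -0.77 and -0.68 in BCAM-high, BCAM-low and differentiated cells and adjusted p-values of 0.00154, 0.000169 and 0.000358. Rps4x changed by -0.59, -0.64 and -0.46. In differentiated cells Rps27 (-0.79) and Rps15 (-0.73) were among the 5. Rps23 had the largest fall in BCAM-low cells (-1.04, SE 0.19, adjusted p 0.000441), followed by Rpl23a (-0.88), a protein at the tunnel exit. Copies held 72.1% of the joint counts of Rps23, and with copies added Rpl23a had the largest fall in BCAM-low cells (-0.87). In BCAM-high cells Rpl11 (-0.57) and Rps19 (-0.56), a gene mutated in Diamond-Blackfan anaemia, were also among the 5. Without BCAM-high replicate 6, Rpl11 (-0.55) and Rps19 (-0.53) no longer passed in BCAM-high cells, and without replicate 7, Rpl11 (-0.53) and Rps19 (-0.52). Rpl35, the next in BCAM-low cells (-0.82, adjusted p 0.0118), did not pass without BCAM-low replicate 6 (-0.78) or 7 (-0.75). Rpl10 was the 1 gene called higher in batch 2, in differentiated cells (0.60, SE 0.21, adjusted p 0.0447), and it turned to -0.18 with its copies added. That call was lost on leaving out any one of 10 libraries, differentiated replicates 2 to 7, BCAM-high replicate 5 and BCAM-low replicates 5, 7 and 8, with values of 0.47 to 0.63.

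Of the 13 mitochondrially encoded mRNAs, 4, 9 and 9 were lower in batch 2 of BCAM-high, BCAM-low and differentiated cells, where 3.11%, 4.66% and 10.2% of all genes were, and none was higher. Their medians were -0.74, -0.95 and -1.02. The 13 held 54412 to 76822 TPM in BCAM-high libraries of batch 1 and 25488 to 52357 in those of batch 2. Secretory markers were lower in batch 2 of differentiated cells (5 of 9 called) and higher in batch 2 of BCAM-low cells (3 of 9), where all 8 ciliated markers were also higher. Depth, composition and RNA quality were not tested for their part in the batch result.

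**Figure D4:**
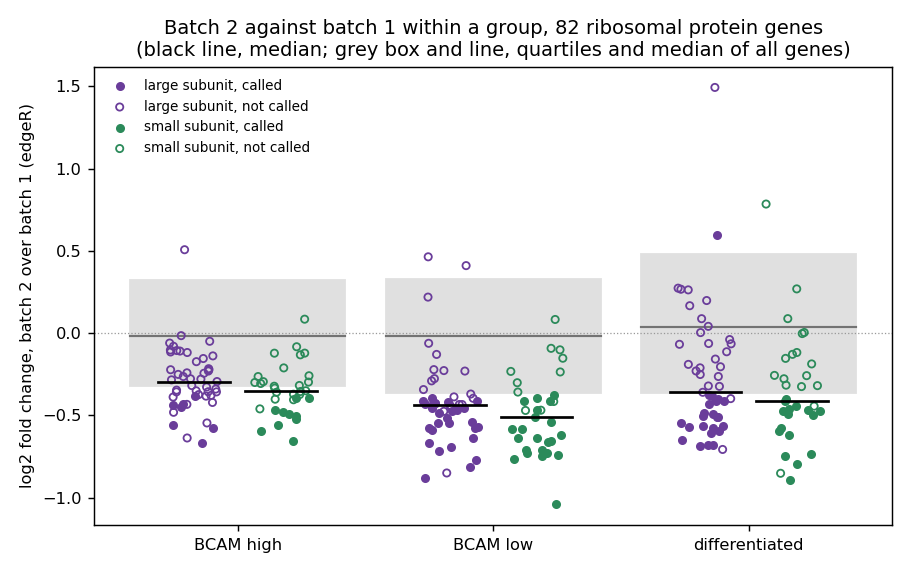
Fitted log2 fold changes of batch 2 over batch 1 (vertical axis) within each cell group (horizontal axis) for 49 large-subunit and 33 small-subunit genes; filled points passed the test, black lines are medians and the grey box and line the quartiles and median of all genes. Medians of the ribosomal protein genes are -0.33, -0.45 and -0.38.

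The differences between groups were tested for dependence on the batch, a contrast of both differences. None of the 82 genes passed for BCAM-high against BCAM-low by edgeR or by DESeq2, against 0.172% higher and 0.884% lower among all genes by edgeR. Unadjusted, 6 of the 82 had a p under 0.05 in the edgeR fit, against 1432 of all 12211 genes. For BCAM-high against differentiated cells Rpl10 passed (-1.08, adjusted p 0.0229), where 3.28% of all genes were lower and 5.41% higher. For BCAM-low against differentiated cells Rpl21 (-0.98, adjusted p 0.00557), Rps19 (-0.66, adjusted p 0.0157) and Rps23 (-1.31, adjusted p 0.00117) passed, where 4.55% of all genes were lower and 6.81% higher. With copies added the values were 0.07 for Rpl10, -0.25 for Rpl21 and -0.44 for Rps23, none past the threshold, and -0.64 for Rps19 (adjusted p 0.0155). Others passed only with copies added: Rpl28 (0.62) and Rps19 (-0.55) for BCAM-high against differentiated cells, and 2 genes for BCAM-low against differentiated cells, of which 1 was Rpl22l1 (-0.69). Rpl28 is named after its values were seen. The call of Rpl10 was also lost without BCAM-high replicate 6 or differentiated replicate 6 or 7, while leaving out other libraries gave up to 6 called genes.

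The large subunit made up more of the ribosomal protein TPM in differentiated cells. The ratio of summed TPM of large to small subunit genes averaged 1.14 ± 0.0166 (SD, n = 5) and 1.2 ± 0.0393 (SD, n = 3) in batches 1 and 2 of BCAM-high, 1.16 ± 0.0244 and 1.25 ± 0.0319 for BCAM-low, and 1.24 ± 0.0237 and 1.38 ± 0.0383 in differentiated libraries. In both batches the differentiated libraries were above those of BCAM-high cells (1.21 to 1.27 against 1.12 to 1.15, and 1.34 to 1.42 against 1.15 to 1.23). These are sums over the chosen genes and were given no test. The large-subunit sum includes Rpl41, at a mean of 3843 TPM in BCAM-high, 2977 for BCAM-low and 2148 in differentiated libraries. The ratio was not computed without Rpl41 or with copies added.

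Other genes of translation were looked at in lists. Among ribosomal proteins outside the naming rule, Rack1, a scaffold on the small subunit, and Fau, made as a ubiquitin-like fusion, were higher in BCAM-high against differentiated cells (1.06 and 1.01). Of 16 other mRNAs known to carry a TOP, 14 were higher and 1 was lower with a median of 0.67, among them the nucleolar chaperone Npm1 (0.97, adjusted p 1.82e-09), the elongation factor subunit Eef1b2 (0.94, adjusted p 2.25e-11) and the poly(A)-binding protein Pabpc1 (0.88, adjusted p 2.12e-08). Eif3f, a subunit of initiation factor 3, was lower (-0.76, adjusted p 0.000785), and did not pass by library totals (-0.19). Of 48 initiation and elongation factors, which share some genes with the TOP list, 14 were higher and 2 lower with a median of 0.14, where 19.4% of all genes were higher and 22% lower. Eef1g (0.79) and Eif2b3 (0.82) were among the higher, and Eif5b was lower by 0.49 on the TMM scale but at 0.05 by library totals. The medians of the TOP and factor lists under library totals were 1.22 and 0.68, where the median of all genes was 0.57.

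Ribosome biogenesis genes had a smaller median change. Of 75, 36 were higher and 2 lower in BCAM-high against differentiated cells (median 0.39), against 19.4% and 22% of all genes. Batch 2 alone gave 5 higher and 2 lower, against 1597 and 2067 of 12385 genes. Transcript length offsets gave 15 higher and 1 lower, against 1854 and 2195 of 12211 genes. Npm1, which is also on this list, and Utp14a (0.86, adjusted p 0.000498), a processome component, were among the higher. Gar1 of the H/ACA particle had the largest change (1.30, adjusted p 0.0497) from means of 3.48 and 1.43 CPM, and lost its call under most alternatives. Nop10 (-0.36) and Sbds (-0.23) were lower on the TMM scale and at 0.17 and 0.31 by library totals. Gar1 and Sbds did not keep their calls without some single libraries of each group, Sbds at -0.21 without differentiated replicate 1, and Gar1 at 1.03 without BCAM-high replicate 7. In the other comparisons 2 biogenesis genes were higher in BCAM-high than in BCAM-low cells, and 11 higher and 2 lower in BCAM-low than in differentiated cells, shares of higher genes close to the 2.43% and 16.3% of all genes.

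Of 24 genes of mTOR signalling and other regulators of ribosomal protein mRNAs, 5 were higher and 2 lower in BCAM-high against differentiated cells, with a median of 0.05. The share of higher genes is close to the 19.4% of all genes, and that of lower genes is below the 22% of all genes. Eef2k, the kinase that inhibits elongation factor 2, had 83.6 ± 16.3 CPM (SD, n = 8) in BCAM-high, 69.8 ± 10.2 for BCAM-low and 11.9 ± 6.42 in differentiated libraries. The log2 change of Eef2k between the first and last was 2.79 (adjusted p 1.08e-11). Myc, a transcription factor that drives ribosome production, rose by 1.25 (adjusted p 0.00481) but had 0.21 within batch 2, and Rictor of mTOR complex 2 rose by 0.91. Deptor, an mTOR inhibitor, was lower (-0.87, adjusted p 5.24e-07), as was the Myc partner Max (-0.63), which turned to 0.21 with limma on TPM.

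Genes for proteins of the mitochondrial ribosome did not share the rise of the cytosolic ones on the TMM scale. Of 78 mitochondrial ribosomal protein genes 3 were higher and 14 lower in BCAM-high against differentiated cells on the TMM scale (median -0.11). Both shares were below the 19.4% and 22% of all genes. By library totals 46 were higher and 2 lower, with a median of 0.44 that stayed below the 0.57 of all genes. Mrps24 (-1.20, adjusted p 5.53e-07) and Mrpl57 (-0.95, adjusted p 1.11e-06) fell most, and Mrps2 (0.57), Mrpl52 (0.33) and Mrpl24 (0.31) rose. Of the 13 mitochondrially encoded mRNAs 2 were lower, mt-Nd1 (-0.37) and mt-Nd4 (-0.35), a share below the 22% of all genes. Both were above 0 by library totals (0.17 and 0.20). The call of mt-Nd4 was lost without BCAM-high replicate 4, 5 or 6 or differentiated replicate 2 or 3 (-0.32 to -0.31). The cytosolic ribosomal proteins had 78 higher and none lower by library totals (79 of the 82 at an unadjusted p under 0.05), against 6386 higher and 1292 lower of all genes there and 2363 and 2681 on the TMM scale.

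**Figure D5:**
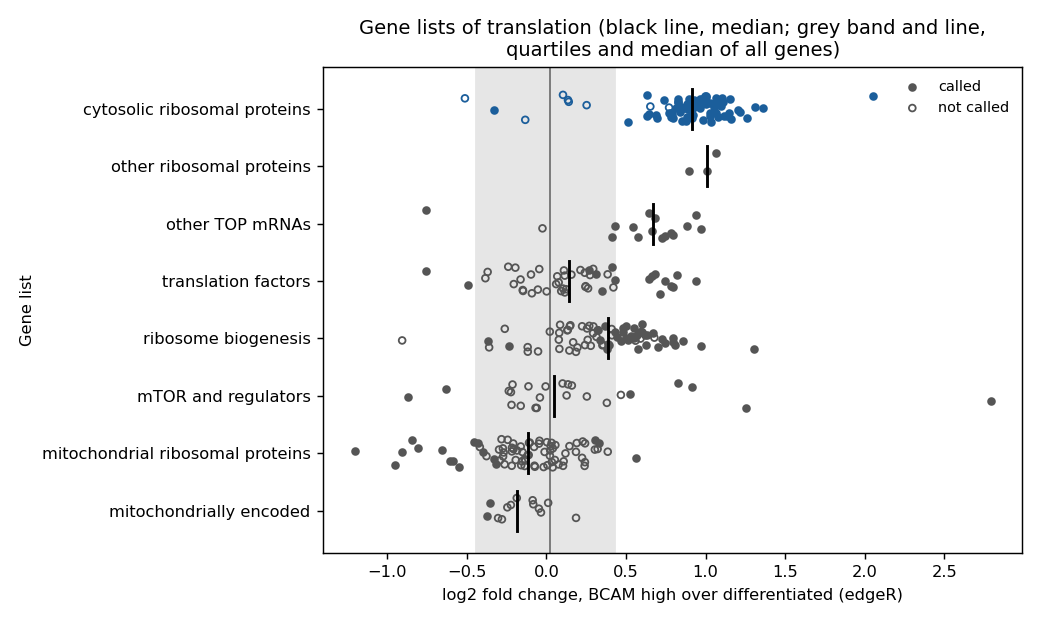
Fitted log2 fold changes of BCAM-high over differentiated cells (horizontal axis) for the cytosolic ribosomal proteins and 7 other gene lists (vertical axis); filled points passed the test, black lines are medians, and the grey band and line the quartiles and median of all genes. The cytosolic ribosomal proteins have a median of 0.92, other TOP mRNAs 0.67, biogenesis genes 0.39 and mitochondrial ribosomal proteins -0.11.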

How the data were processed

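Low-input RNA-seq of 24 libraries was deposited by the authors as 1 table a library with estimated counts and TPM for 117497 transcripts. The submitters' processing notes name kallisto (version given as 46.1), Picard and the build GRCm39. Estimated counts and TPM were summed per gene with GENCODE M21 names and coordinates (GRCm38), which matched 116374 transcripts; the rest held 0.317% to 0.594% of the counts. The deposited estimated counts were rounded to whole numbers. The genes and lists were chosen with earlier results of these data known.

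edgeR 4.0.16 (R 4.3.3; filterByExpr, TMM, robust quasi-likelihood) fitted all 24 libraries and 12211 genes, with a mean for each group and a batch term, or a mean for each group and batch for contrasts that involve batch. Genes were called at a Benjamini-Hochberg adjusted p under 0.05. CPM are on the TMM scale. Scripts were tested on simulated data. Alternatives used DESeq2 1.42.0, limma 3.58.1 on log2(TPM + 0.1) or log2(TPM + 1), other scalings and filters, each batch alone, and sequence copies added (chosen after seeing the data). Named genes were up to 5 called genes with the largest change in each contrast and direction, the 5 highest and lowest by TPM, paralogue pairs, Rplp0, Rpsa and Rps6, and up to 3 called genes per direction of each list; exceptions are stated, and results of a few genes that met the rule are not reported here. Totals of 1824619 to 4440072 counts limit the precision for genes with few counts.

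Libraries share numbers across groups in the labels. The deviations of same-numbered libraries from their group means correlated at 0.121 to 0.290 between BCAM-high and BCAM-low (8 of 8 over 0.1), where numbers also carry the batch, and at 0.0382 to 0.241 and 0.0639 to 0.242 (5 of 8 each) in the other comparisons. Around means of group and batch, 3, 3 and 1 of 8 were over 0.1, and the lowest were 0.0315, 0.0354 and 0.0363. Same-numbered libraries correlated more than the mean of other numbers of that batch in 7, 8 and 7 of 8 around group means. Around means of group and batch they did so in 8 of 8 in each comparison. Libraries with the same number may thus be paired, while the main fits and the permutation tests treated all libraries as unpaired.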

Additional observations from a re-analysis of the deposited data

Results flagged for a closer look

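Of 108 sets of 8 libraries looked at, 4 held a library far from the rest, where chance alone sets about 1 in 20 apart. BCAM-low replicate 3 was the highest of its group for Rpl36a (238 CPM), Rpl41 (1519 CPM) and Rps6 (526.1 CPM). Differentiated replicate 6, of batch 2, had the lowest summed TPM of ribosomal protein genes of all libraries, 2.43%.

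In 4 genes a difference between groups depended on the batch by the test of that contrast. Rpl10 had -1.08 for BCAM-high against differentiated cells, and Rps19, Rpl21 and Rps23 had -0.66, -0.98 and -1.31 for BCAM-low against differentiated cells (batch 2 minus batch 1, log2). With sequence copies added, those of Rpl10 (0.07), Rpl21 (-0.25) and Rps23 (-0.44) no longer passed, and that of Rpl10 was also lost without BCAM-high replicate 6 or differentiated replicate 6 or 7.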

How the results depend on the processing

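Counts of called ribosomal protein genes are given first. BCAM-high against BCAM-low cells had 45, with 4 without the batch term, 17 in batch 1 and 13 in batch 2, and BCAM-low against differentiated cells had 71, with 43 in batch 2. Batch 2 against batch 1 in BCAM-high cells had 17, with 8 by library totals, 0 with limma at either pseudocount (edgeR's 49 at an unadjusted p under 0.05 against limma's 12 and 11) and 30 with copies added. In BCAM-low cells it had 50, with 31 and 32 with limma, and in differentiated cells 39, with 11 by library totals, 11 and 11 with limma and 64 with copies. The dependence on batch had 0 genes for BCAM-high against BCAM-low cells and 1 without the filter. For BCAM-high against differentiated cells it had 1, with 4 by library totals, 3 without the filter, 3 by DESeq2's Wald test, 3 with length offsets, 2 with copies and 0 with limma (8 unadjusted). For BCAM-low against differentiated cells it had 3, with 17 by library totals and 5 and 6 with limma. Leaving out each library gave 34 to 54, 73 to 75 and 69 to 72 for the 3 group comparisons, 2 to 22, 30 to 55 and 24 to 42 for batch, and 0 to 1, 0 to 6 and 2 to 5 for dependence on batch. The summed level was 5.70%, 3.98% and 2.06% as a share of estimated counts and 7.45%, 5.13% and 2.72% with copies.

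With the replicate number as a block, 49, 74 and 70 genes were called in the 3 group comparisons, and 44, 74 and 70 of them were also called without it.

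Directions in BCAM-high against differentiated cells turned by library totals for Eif5b (0.052), Nop10 (0.17), Rpl10 (0.41), Rpl36al (0.21), Sbds (0.31), mt-Nd1 (0.17) and mt-Nd4 (0.20). With limma at pseudocounts of 0.1 and 1 they turned for Eif5b (0.12, 0.11), Max (0.21, 0.20), Nop10 (0.40, 0.39), Rpl10 (0.50, 0.50), Rpl36al (0.43, 0.43), Sbds (0.48, 0.47), mt-Nd1 (0.37, 0.37) and mt-Nd4 (0.39, 0.39). These settings put the median of all genes at 0.57 and, for limma at a pseudocount of 0.1, at 0.75, against 0.02. Rpl10 also turned in batch 1 alone (0.25), with pseudogene counts (0.039) or copies (0.065) added, and for batch in differentiated cells with the same additions (-0.19, -0.18), and Rpl7l1 with length offsets (-0.0061). Beyond the shift by scaling and fewer libraries, the cause was not tested. Over 76 results for single genes, 938 of 1059 values under alternatives kept direction and side of the threshold, 78 lost the call, 14 gained it and 29 turned. With a library left out, 1769 of 1824 kept both and 55 lost the call. Genes with few own counts, such as Rpl5 and Rpl12, are limited by how reads were shared with copies.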
